A study of Mus musculus with 52 samples.

Results

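Promoter accessibility in mouse embryonic stem cells (mESCs) was compared before and after removal of the CpG island-binding domain of KDM2A alone, in 6 calibrated ATAC-seq (cATAC-seq) libraries of the Kdm2a-CXXC line out of 52 samples in the series. All 20633 promoters with a value were compared, each a 400 bp interval centred on a transcription start site, and 17727 of them had enough reads to be tested. No promoter passed the test: 0 of 17727 reached an adjusted p of 0.05 with a fold over 1.4, either on the scale of the spike-in or relative to the other promoters (0% called on both). The treated libraries were lower by a median of 0.18 on the calibrated log2 scale, a shift no larger than the spread between libraries. In each direction 8 promoters were named by smallest p, among those with non-overlapping groups and at least 20 calibrated reads. Brinp1, Adgrg2 and Alg10b led the lower side and Dclk1, Qrfpr and Rragd the higher side. The least accessible and most GC-poor of the tested promoters were slightly higher relative to the rest in all 3 treated libraries, by a median of 0.12 on the log2 scale in the lowest quintile.

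There were 3 untreated and 3 treated libraries. All 6 came from Kdm2a-CXXC fl/fl cells, in which loxP sites flank exon 14 of both Kdm2a alleles and which carry a CreERT2 recombinase at Rosa26. The untreated cells keep the ZF-CxxC domain, and the treated cells were given 4-hydroxytamoxifen (800 nM for 96 h) so that CRE removes it from KDM2A, while Kdm2b is left intact in both. The line was made by CRISPR from isolated clones, and no cells without loxP sites were treated, so that removal of the domain and exposure to tamoxifen and active CRE cannot be told apart in these libraries. The other 3 lines, used here only where stated, carry loxP sites in Kdm2b (Kdm2b-CXXC), in both genes (Kdm2a/b-CXXC), or around the demethylase exons of both (Kdm2a/b-JmjC).

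KDM2A is a histone demethylase whose JmjC domain acts on dimethylated lysine 36 of histone H3 (H3K36me2), a mark found over most of the genome. Its ZF-CxxC domain binds CpG dinucleotides that carry no methyl group, which brings the protein to CpG islands, the GC-rich stretches that cover most promoters of widely expressed genes and of developmental regulators. The related KDM2B has the same domain and also recruits Polycomb repressive complex 1 (PRC1) to CpG islands through PCGF1. In ATAC-seq the Tn5 transposase cuts accessible DNA, so that more reads at a promoter mean more accessible DNA there, and Drosophila SG4 cells mixed in before the assay give a scale that does not depend on the mouse reads.

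The sequences before the start sites of the promoters with the smallest p show how different their CpG content was. Each is the 200 bases upstream of the interval's centre in GRCm38.p6 (mm10), read 5′ to 3′ along the gene, with every CpG dinucleotide in capitals. The first 3 were the lowest by p among promoters whose 3 treated values were under the 3 untreated ones. Brinp1 (chr4:68954398-68954597, minus strand) had 11 CpGs, Adgrg2 (chrX:160390490-160390689, plus strand) had 23 and Alg10b (chr15:90224111-90224310, plus strand) had 17.
Brinp1: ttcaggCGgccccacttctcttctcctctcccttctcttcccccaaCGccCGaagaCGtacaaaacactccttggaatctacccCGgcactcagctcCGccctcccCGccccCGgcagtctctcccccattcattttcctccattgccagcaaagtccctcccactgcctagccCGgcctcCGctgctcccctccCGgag
Adgrg2: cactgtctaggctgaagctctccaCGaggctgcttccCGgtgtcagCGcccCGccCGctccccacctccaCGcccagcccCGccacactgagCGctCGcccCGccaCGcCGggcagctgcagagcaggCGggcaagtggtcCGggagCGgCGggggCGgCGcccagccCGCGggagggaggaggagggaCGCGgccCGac
Alg10b: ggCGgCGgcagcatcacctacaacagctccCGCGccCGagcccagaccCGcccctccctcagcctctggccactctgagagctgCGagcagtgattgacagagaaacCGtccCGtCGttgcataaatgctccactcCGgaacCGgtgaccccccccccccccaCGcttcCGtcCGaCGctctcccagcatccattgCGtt
The other 3 led the opposite direction. Dclk1 (chr3:55461558-55461757, plus strand, an internal promoter of the gene) had 4 CpGs, Qrfpr (chr3:36222276-36222475, minus strand) had 5 and Rragd (chr4:32982798-32982997, plus strand) had 3.
Dclk1: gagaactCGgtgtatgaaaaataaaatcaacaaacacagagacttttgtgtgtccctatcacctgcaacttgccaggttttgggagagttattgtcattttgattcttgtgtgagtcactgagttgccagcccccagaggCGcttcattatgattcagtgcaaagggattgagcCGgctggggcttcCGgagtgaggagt
Qrfpr: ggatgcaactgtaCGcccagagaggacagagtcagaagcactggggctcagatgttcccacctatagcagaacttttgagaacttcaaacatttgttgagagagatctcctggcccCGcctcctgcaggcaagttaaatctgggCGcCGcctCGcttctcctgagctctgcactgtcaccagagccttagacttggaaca
Rragd: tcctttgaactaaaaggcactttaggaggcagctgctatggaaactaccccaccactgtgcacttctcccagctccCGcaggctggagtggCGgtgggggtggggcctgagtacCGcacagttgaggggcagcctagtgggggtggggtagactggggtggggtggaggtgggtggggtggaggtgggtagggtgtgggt
These 6 were chosen by their values, and the contrast between them is a description. Over the whole 400 bp interval Qrfpr counted as CpG-rich (58.5% GC), as did the first 3, while Dclk1 and Rragd did not. Among all tested promoters whose groups did not overlap on the relative scale, 75.6% of the 1025 lower ones and 49.6% of the 951 higher ones were CpG-rich, against 63.5% of all tested.

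The libraries held 2.23 to 3.03 M promoter reads untreated and 1.83 to 2.11 M treated, with medians of 64 to 108 reads per promoter, and between any 2 libraries log2 calibrated reads correlated with an r of 0.952 to 0.967 over the tested promoters. Promoters of the 11 embryonic stem cell marker genes matched (12 intervals, among them Pou5f1, Nanog, Esrrb and Zfp42) had a median of 200 calibrated reads, against 19 to 85 for the marker lists of endoderm, mesoderm, nerve, trophoblast and fibroblast cells. No marker promoter passed the tests. The embryonic stem cell markers had a median relative log2 change of 0.011, with 7 of 12 above 0, and their summed relative reads overlapped between groups. The largest change among them was at Pou5f1, which encodes the pluripotency factor OCT4, and which had 101, 70.7 and 83.3 relative reads (scaled to the bulk of promoters) untreated and 70.6, 64.5 and 42.4 treated. Its groups lay just apart, with an adjusted p of 0.748 by limma.

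On the spike-in scale the accessibility of most promoters was somewhat lower in treated cells, but not beyond the variation between libraries taken without pairing. Calibrated reads are mouse reads divided by the size factor that the spike-in gives each library, and they summed to 2.31 ± 0.19 M over all promoters in untreated and 2.04 ± 0.284 M in treated cells (SD, n = 3 each). The median log2 ratio of tested promoters to the untreated mean was -0.12, -0.0047 and 0.11 in the untreated libraries and -0.39, -0.18 and 0.01 in the treated ones. Treated replicates 1 and 2 lay below all untreated libraries, and replicate 3 lay among them. Each treated library lay below the untreated library of the same replicate number, and the values rose with the number in both groups. Whether the numbers pair the samples is not stated, and a paired permutation test would allow no p under 0.25. The difference of -0.18 had an exact two-sided permutation p of 0.3 over libraries, where 3 against 3 allows none under 0.1. In the other lines the same difference was 0.085 in Kdm2a/b-CXXC, 0.098 in Kdm2b-CXXC and -0.21 in Kdm2a/b-JmjC, given side by side with no test. Fewer cells with an open promoter and a less open promoter in every cell cannot be told apart in such bulk libraries.

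Promoter by promoter, 81.2% of the 17727 tested had a calibrated log2 change below 0, and 1418 (8%) had an unadjusted p under 0.05 in the lower direction against 70 (0.395%) in the higher one. The smallest adjusted p was 0.135 by limma, shared by Brinp1 and Adgrg2, and edgeR's quasi-likelihood test and DESeq2 on the recovered reads also called 0, with 1465 and 1193 promoters at an unadjusted p under 0.05. The 3 treated values were under the 3 untreated ones at 2374 promoters (13.4%) and above them at 199 (1.12%). With no replicate block the count depended on 1 library. Without tamoxifen replicate 3 limma called 50 promoters (0.282%), all lower, and leaving out any other library left 0. With a replicate block 188 (1.06%) were called. The labels do not say whether the replicate numbers pair the samples, though the calibrated library medians rose with the number in both groups. In all 6 libraries, 28 of those 50 still had non-overlapping calibrated groups. Of the 5 with the smallest p without that library, Adgrg2 and Gabre (a subunit of GABA-A receptors) lie on the X chromosome, Cyp4f13 encodes a cytochrome P450, Spag17 a protein of motile cilia and Msc the transcription factor musculin. The calibrated reads of Gabre were 46.8, 35 and 48.6 untreated and 18.3, 11.6 and 38.1 treated, with the third treated value inside the untreated range. At 28 of the 50 promoters tamoxifen replicate 3 lay below all untreated libraries.

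**Figure D1:**
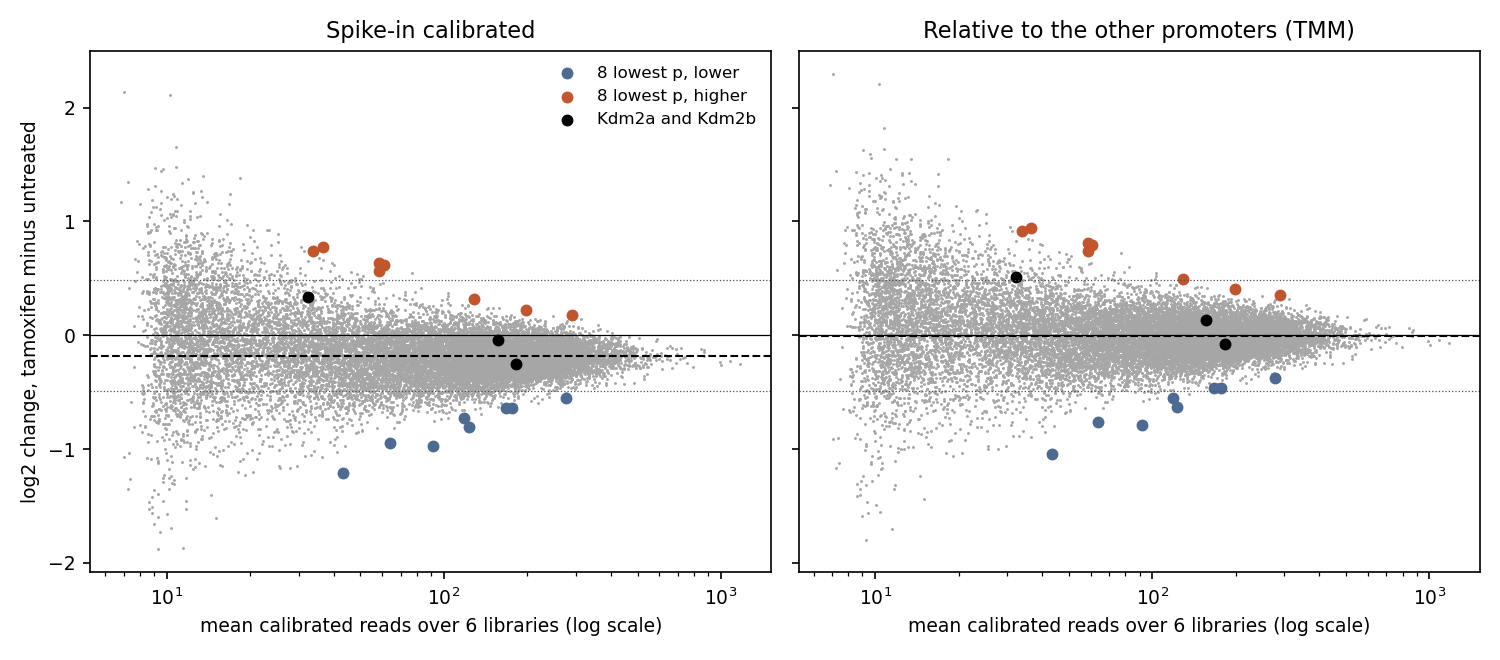
Log2 change between tamoxifen-treated and untreated Kdm2a-CXXC cells (vertical axis) against mean calibrated reads (horizontal log axis) for the 17727 tested promoters, on the calibrated scale (left) and relative to the other promoters (right). Dashed lines mark the medians of -0.18 and -0.0029 and dotted lines a 1.4-fold change, and the spread narrows as reads increase. Blue and red points are the 8 promoters with the smallest p in the lower and higher direction. They were taken among promoters with non-overlapping groups and at least 20 calibrated reads. Black points are the Kdm2a and Kdm2b promoters.

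To ask which promoters differed from the rest whatever the common shift, reads were scaled by TMM, which sets the bulk of promoters equal between libraries. These TMM-scaled reads are called relative reads here. Changes were then small and balanced. The median relative log2 change was -0.0029, and 9 in 10 promoters lay between -0.36 and 0.48. Relative to the rest, 576 promoters (3.25%) had an unadjusted p under 0.05 and were lower and 520 (2.93%) were higher. The smallest adjusted p was 0.635 by limma, with 0 called by limma, by edgeR (1064 at an unadjusted p under 0.05) and by DESeq2 (500). Groups did not overlap at 1025 promoters that were lower (5.78%) and 951 that were higher (5.36%). For 9242 promoters (52.1%) the whole 95% interval of the relative change lay within 1.4-fold either way, and for 14955 (84.4%) within 2-fold. The other promoters could not be placed inside those bounds, through a wide interval, a large estimate or both. The estimate itself lay past 1.4-fold at 402 promoters in the lower and 859 in the higher direction.

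Among promoters with non-overlapping groups and at least 20 calibrated reads, the 8 with the smallest relative p on the lower side were all CpG-rich. Brinp1, which encodes a protein of the nervous system known to restrain cell division, had 101, 125 and 116 relative reads untreated and 77.0, 75.8 and 47.1 treated. The treated libraries all lay below the untreated ones, at a log2 change of -0.79 ± 0.18 (SE) and an adjusted p of 0.635 by limma. Adgrg2, an adhesion G protein-coupled receptor best known from the epididymis, had 59.6, 49.3 and 60.5 relative reads untreated and 20.3, 28.7 and 33.0 treated. At -1.04 ± 0.25 (SE) it had the largest change of the 8, with the groups well apart. Alg10b, a glucosyltransferase that completes the sugar chain used for N-glycosylation, had 151, 135 and 155 relative reads untreated and 117, 96.3 and 75.3 treated.

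Others on this side were Bmp1, Vamp3, Cnpy2 and Cab39, with relative log2 changes from -0.77 to -0.37. Bmp1 encodes a protease that processes procollagen and releases BMP signals from chordin, and it went from 79.0 ± 6.88 to 46.1 ± 5.61 relative reads (SD, n = 3). Vamp3, a SNARE protein of recycling endosomes, was the most accessible of the 8 and went from 308 ± 9.36 to 237 ± 13.2 relative reads. Cnpy2 encodes a protein of the endoplasmic reticulum and Cab39 the scaffold MO25 of the kinase LKB1. On the calibrated scale, which adds the common downward shift to the same reads, all 8 had log2 changes between -1.21 and -0.55. This direction follows from how they were chosen. Their calibrated groups did not overlap, as held for 76.4% of the 1025 promoters with lower groups on the relative scale.

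On the higher side the 8 promoters were mixed in base composition, 3 of them CpG-rich and 5 not. Dclk1, a microtubule-associated kinase of neurons and tuft cells, had 38.1, 52.9 and 42.9 relative reads untreated and 69.5, 82.9 and 80.0 treated at an internal promoter. The treated libraries all lay above the untreated ones, at a log2 change of 0.79 ± 0.20 (SE) and an adjusted p of 0.65 by limma. Another Dclk1 promoter (NM_001195538) lay the other way, at 66.4, 82.9 and 65.7 relative reads untreated and 62.1, 54.3 and 38.8 treated. Qrfpr, the receptor of the neuropeptide QRFP, had 37.1, 47.2 and 42.9 relative reads untreated and 81.3, 60.4 and 84.8 treated. Rragd, a Rag GTPase that signals amino acids to mTORC1, had 21.5, 30.0 and 23.7 relative reads untreated and 43.9, 53.2 and 49.4 treated, the largest relative change of the 8 at 0.95 ± 0.26 (SE).

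The other 5 were Capn10, Pcdhga6, Zfp389, Pla2g4f and Tox4, with relative log2 changes from 0.36 to 0.92. Pla2g4f encodes a phospholipase A2 and went from 23.6 ± 3.16 to 45.9 ± 10.3 relative reads (SD, n = 3), while Pcdhga6, a clustered protocadherin, went from 43.3 ± 1.3 to 75.6 ± 22.8. Capn10 is a calpain protease, Zfp389 a zinc finger gene and Tox4 an HMG-box protein of a phosphatase complex. On the calibrated scale, where all promoters share the downward shift, groups overlapped at Capn10, Pcdhga6 and Zfp389 and stayed apart at Dclk1, Qrfpr, Rragd, Pla2g4f and Tox4.

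**Figure D2:**
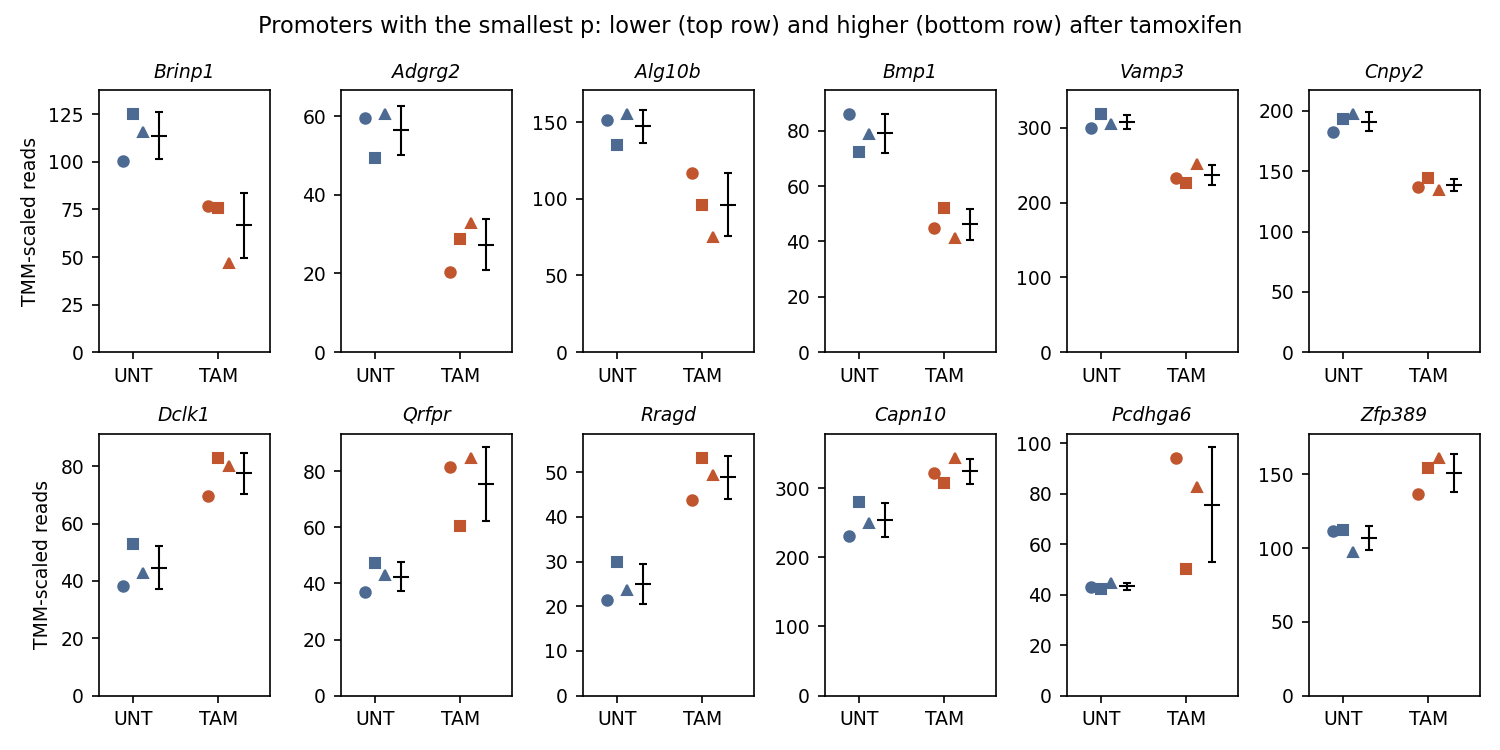
Relative (TMM-scaled) reads at the 6 promoters with the smallest p in the lower (top row) and higher (bottom row) direction, with 1 point per library (circle, square and triangle for replicates 1, 2 and 3) and the mean ± SD of 3 libraries beside them. UNT is untreated and TAM is tamoxifen-treated; the groups do not overlap in any panel, as the choice of promoters required.

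To compare the response with that of the other lines, the Kdm2a-CXXC change was set against the mean change of the other 3 lines in 1 limma fit over all 26 ATAC libraries. Of 15880 promoters with reads in every line, 0 (0%) passed, and 778 had an unadjusted p under 0.05. Kdm2a is also altered in the 2 double lines, so that this contrast subtracts part of any effect of KDM2A itself and does not isolate it. Against Kdm2b-CXXC alone, the line with Kdm2a intact, limma also called 0, with 674 at an unadjusted p under 0.05. At Brinp1 the relative log2 change was -0.78 in Kdm2a-CXXC cells, 0.06 in Kdm2a/b-CXXC, 0.13 in Kdm2a/b-JmjC and -0.23 in Kdm2b-CXXC. At Adgrg2 the values in the same order were -1.03, -0.43, 0.23 and -0.04. The difference between lines had an adjusted p of 0.70 by limma at both promoters. Qrfpr was at 0.82 in Kdm2a-CXXC cells and at -0.58 in Kdm2b-CXXC cells, with 0.09 and 0.07 in the 2 double lines. The smallest p of the comparison belonged to Spata31, a spermatogenesis-associated gene, which had 17.2, 25.1 and 25.3 calibrated reads untreated and 12.2, 2.9 and 7.61 treated. Its difference between lines of -1.79 ± 0.395 (SE) had an adjusted limma p of 0.179, and 0.00246 without tamoxifen replicate 1, the only 1 of the settings run in which a promoter passed.

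At the promoters of the targeted gene and its relative no change passed the tests. Exon 14 lies outside these intervals, so that reads here do not measure its removal. The Kdm2a promoter (chr19:4396878-4397277) had 146, 149 and 152 relative reads untreated and 188, 163 and 144 treated, with overlapping groups, a log2 change of 0.13 ± 0.13 (SE) and a 95% half-width of 0.26. The downstream of the Kdm2b promoters (NM_013910, chr5:122900151-122900550) was at 164, 180 and 210 relative reads untreated and 156, 173 and 195 treated. The upstream one (NM_001003953, chr5:122988900-122989299), with fewer reads, had 28.3, 23.6 and 28.0 untreated and 41.7, 36.9 and 36.5 treated. The groups there did not overlap, at a relative log2 change of 0.51 ± 0.27 (SE) and an adjusted p of 0.824 by limma. The change at that promoter was 0.19 in Kdm2a/b-CXXC, 0.24 in Kdm2a/b-JmjC and -0.25 in Kdm2b-CXXC.

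Because KDM2A reaches chromatin through CpG dinucleotides, promoters were split by CpG content. CpG-rich promoters, 11256 of those tested, had a GC fraction of 0.5 or more and 0.6 or more of the CpGs that their base composition predicts, and they took 84.8% ± 0.0427 of all promoter reads in untreated and 84.3% ± 0.266 in treated cells (SD, n = 3). Their median calibrated log2 change was -0.20, and that of the 6471 other tested promoters -0.12. Subtracting the median of the other promoters from that of the CpG-rich ones gave 0.0056, -0.0014 and 0.0013 in the untreated libraries and -0.12, -0.045 and -0.066 in the treated ones. The treated libraries were all under the untreated ones, and the difference of -0.079 had the smallest exact permutation p the design allows, 0.1 (0.15 adjusted over 3 such tests). CpG-rich and other promoters differ in GC content and in level. Within bins of 5 percentage points of GC the difference was -0.022, and among promoters with at least 50 calibrated reads it was -0.021. In the other lines it was -0.065 in Kdm2a/b-JmjC, -0.018 in Kdm2b-CXXC and 0.012 in Kdm2a/b-CXXC.

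The change followed GC content in steps over its whole range. In deciles of tested promoters by GC, the median relative log2 change went down in every step from 0.10 at a median GC of 46.5% to -0.065 at 76.8%. The lowest decile stood at 0.15, 0.055 and 0.094 in the treated libraries and at 0.0057, 0.00037 and -0.025 in the untreated ones, and the highest decile at -0.15, -0.013 and -0.044 against -0.031, -0.00055 and 0.022. The low-GC groups did not overlap and the high-GC groups did, through treated replicate 2. Replicate 1 had the steepest course. Base composition moved with the response, and its part in it was not tested. The genomic DNA libraries of the same nuclei are not analysed here.

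**Figure D3:**
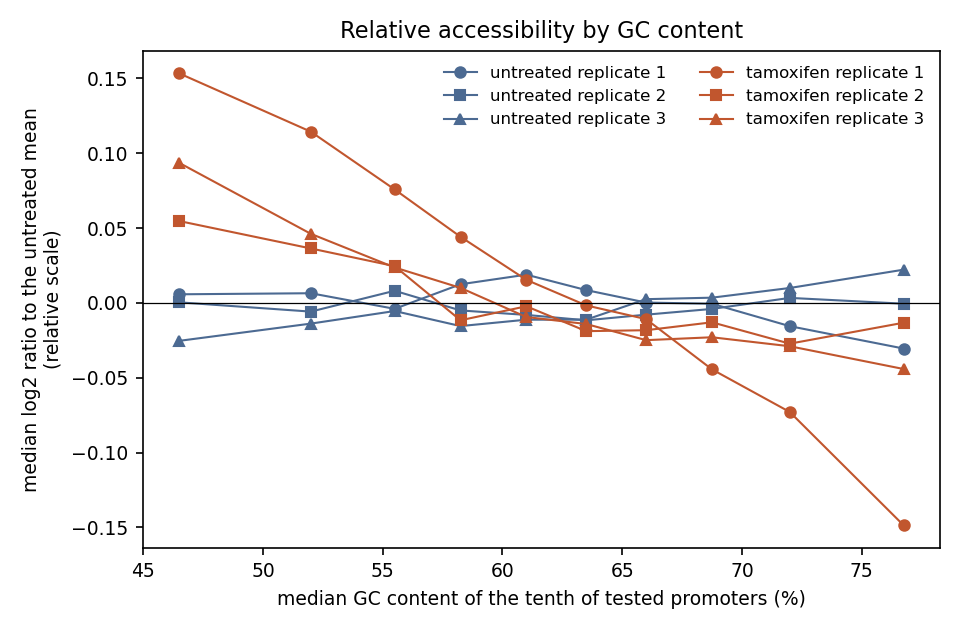
Median log2 ratio to the untreated mean on the relative scale (vertical axis) for deciles of the tested promoters by GC content (horizontal axis, %), with 1 line per library. The treated libraries start at 0.055 to 0.15 in the GC-poor decile and end at -0.15 to -0.013 in the GC-rich decile, while the untreated ones stay between -0.031 and 0.022.

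Promoters were also read by short sequence motifs, which differ in the GC content of the promoters that hold them. On either strand of the 400 bp interval, the TATA box TATAAA was present at 10.4% of all promoters and 7.66% of those tested, which had a median GC of 54.2% and a median relative log2 change of 0.049. The GC box GGGCGG, present at 56.3% of all promoters, went with a median GC of 66% and a change of -0.021. The AP-1 motif TGANTCA (7.28% of all promoters) stood at 0.037 with a GC of 56.2%. The CCAAT box (40% of all promoters), the E-box CACGTG (9.54%), the ETS motif CCGGAAG (14.1%) and the cAMP response element TGACGTCA (2.56%) had median changes between -0.018 and 0.0046. The searches are independent of each other, so that 1 promoter can hold several motifs, and a match is not a measured site.

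By accessibility, the largest shift of a median was at the bottom of the range. Tested promoters were divided into quintiles by their mean calibrated reads over all 6 libraries. The least accessible quintile had 6.86 to 26.5 calibrated reads, a median GC of 52.2% and 4.74% CpG-rich members, and the most accessible had 201 to 1175 reads and 93.9% CpG-rich members. In the least accessible quintile the median relative log2 ratio was -0.074, 0.012 and 0.035 in the untreated libraries and 0.13, 0.072 and 0.17 in the treated ones, with no overlap. In the next 4 quintiles the median relative log2 changes were -0.0042, -0.023, -0.023 and -0.0058. Groups also did not overlap in quintiles 3 and 4, counted from the least accessible, by small amounts. Quintile 3 lay at -0.012 to 0.0065 untreated and -0.029 to -0.016 treated. Quintile 4 lay at -0.011 to 0.0041 untreated and -0.030 to -0.017 treated. The least accessible quintile took 2.38% ± 0.0863 of the reads of tested promoters in untreated and 2.63% ± 0.0691 in treated cells (SD, n = 3), and the most accessible quintile 46.2% ± 0.326 and 46.3% ± 0.0428. The 2906 promoters not tested had fewer reads still (median 6.89), and their groups overlapped. Their median relative log2 ratios were -0.12, 0.0067 and 0.038 untreated and 0.011, 0.032 and 0.15 treated.

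The most minus the least accessible quintile differed by -0.15 between treated and untreated libraries, and all 3 treated values (-0.16, -0.088 and -0.17) lay below the untreated ones (0.077, -0.028 and -0.021). Its exact permutation p was 0.1, the smallest possible (0.15 adjusted over 3 tests). The difference was -0.15 when quintiles were taken from the other 3 lines and -0.082 within quintiles of GC, and it turned to 0.016 among promoters with at least 50 calibrated reads. In the other lines it was -0.072 in Kdm2a/b-JmjC, -0.065 in Kdm2b-CXXC and 0.046 in Kdm2a/b-CXXC. Precision followed level: the median SE of a relative log2 change was 0.434 in the least accessible quintile and 0.104 in the most accessible one. At 98.7% of promoters in the top quintile, and at 0% in the bottom one, the 95% interval excluded a 1.4-fold change in both directions.

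**Figure D4:**
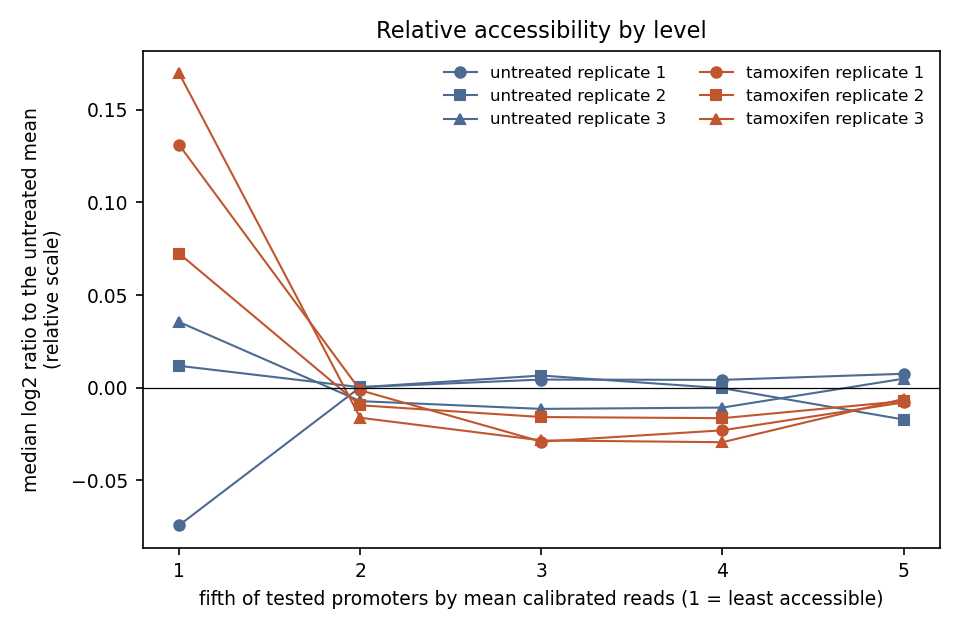
Median log2 ratio to the untreated mean on the relative scale (vertical axis) for quintiles of the tested promoters by mean calibrated reads (horizontal axis), with 1 line per library. In the least accessible quintile the 3 treated libraries lie at 0.072 to 0.17 and the untreated ones at -0.074 to 0.035; in the other quintiles all 6 lie within 0.03 of 0.

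Promoters were then read by function, in 35 lists of genes. No member of any list passed the tests on either scale, and for a list the count of members whose groups did not overlap is read against the 5.78% lower and 5.36% higher of all tested promoters on the relative scale.

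Among chromatin regulators, the ZF-CxxC genes, which share the DNA-binding domain removed here, had a median relative log2 change of 0.078 over 12 tested promoters, 1 lower (Fbxl19, an F-box relative of KDM2A) and 1 higher (the upstream Kdm2b promoter). The largest change among them was at Tet1, which oxidises methylated cytosine, at 0.56 with overlapping groups. PRC1 genes, which place ubiquitin on histone H2A, had a median of 0.032 over 23 tested promoters. Pcgf3 lay lower and Bcor, a partner of KDM2B in variant PRC1, higher, at 36.1, 42.2 and 35.9 relative reads untreated and 49.2, 50.2 and 47.1 treated. None of the 12 PRC2 promoters, whose complex methylates lysine 27 of histone H3, had groups apart, and their median was 0.058 with the largest change at Aebp2 (0.22). The H3K36 demethylases (10 tested) had a median of 0.025. Among H3K36 methyltransferases (6 tested, median -0.069) Setmar lay lower, at 171, 157 and 183 relative reads untreated and 150, 144 and 120 treated. Among 17 heterochromatin genes, which KDM2A is linked to through HP1, the median was -0.005, with Ehmt1, a H3K9 methyltransferase, lower and Atrx, a chromatin remodeller, higher.

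Housekeeping groups stayed close to the bulk. Cytosolic ribosomal proteins had a median relative log2 change of 0.0064 over 66 tested promoters, with 1 lower and 2 higher (Rpl19 the largest at 0.32), and their summed relative reads overlapped between groups. Oxidative phosphorylation genes had a median of 0.0035 over 83, with 8 lower and 2 higher and the largest change at Ndufa13, a subunit of complex I (-0.53). The 17 genes of RNA polymerase I and the nucleolus, where a role of KDM2A in ribosomal RNA transcription has been described, had a median of 0.037, with 1 lower and 1 higher. Polr1b, a core subunit of the polymerase, was lower at 186, 226 and 225 relative reads untreated and 165, 159 and 179 treated. Npm1 was higher, at 453, 434 and 414 relative reads untreated and 460, 472 and 486 treated. On the calibrated scale the groups overlapped at both promoters. Ubtf, the factor that opens ribosomal DNA, had the largest change at 0.34, with overlapping groups. The 305 tested Zfp promoters had 18 lower and 16 higher, close to the share among all promoters, and a median of -0.018. Zfp57, a guardian of imprints, was at 39.1, 27.9 and 29.8 untreated and 16.0, 17.4 and 18.8 treated. It was named after its values were seen, and its adjusted p was 0.755 by limma. The largest change was at Zfp957, at 0.88.

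Signalling and stress lists were likewise without calls. Over 21 promoters of the NF-kappaB pathway, whose p65 subunit KDM2A is known to demethylate, the median relative log2 change was -0.06. Nfkb1, which encodes the p50 subunit, was the largest at 118, 92.9 and 113 relative reads untreated and 78.1, 73.7 and 75.3 treated. Its log2 change was -0.50 ± 0.17 (SE), with an adjusted p of 0.65 by limma. The 24 p53 target promoters had a median of -0.078, with Cdkn1a and Btg2 higher and Bbc3 and Pmaip1 lower. The 20 immediate early promoters had a median of -0.049, with Fosl1 lower and Jun higher. The 17 oestrogen response promoters, which bear on the treatment itself, had a median of 0.097, with 0 lower and 2 higher, and the largest change at Esr1, the oestrogen receptor (-0.83, groups overlapping). The 23 cholesterol synthesis promoters had a median of -0.059 with 0 in either direction, and Ebp the largest change (-0.48).

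Several lists of developmental genes had a negative median. The 34 tested promoters of germ layer regulators had a median relative log2 change of -0.085, with 24 below 0, 3 lower (Lhx1, Elf5 and Foxa2, with Elf5 the largest at -0.77) and 0 higher. Their summed relative reads were 2266, 2294 and 2221 untreated and 2203, 2200 and 2137 treated, groups that did not overlap. The 45 promoters of Wnt ligands and receptors had a median of -0.073, with 4 lower and 0 higher; Fzd5, a Frizzled receptor, was at 519, 486 and 551 relative reads untreated and 410, 442 and 465 treated. Sox factors (21 tested) stood at -0.047 with 3 lower and 1 higher, forkhead factors (43) at -0.041 with 2 lower and 4 higher, and TGF-beta, BMP and Nodal genes (35) at 0.009 with 1 of each. The largest changes in these lists were at Wnt5b (-0.56), Sox10 (0.64), Foxs1 (0.61) and Lefty1 (-0.44). The 40 Hox promoters stood at 0.067 with 1 lower and 3 higher, Hoxb2 among them at 0.63. Naive pluripotency genes (21) had a median of 0.017, with Pou5f1 and Utf1 lower.

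Neural adhesion genes went both ways. The list of synaptic adhesion and transmission had a median of -0.10 over 36 tested promoters, with 4 lower (Shank3, Nlgn1 and Slitrk4 among them) and 0 higher, and its summed relative reads were barely apart between groups. Slitrk4, a synaptic organiser on the X chromosome, went from 24.1 ± 3.79 to 11.4 ± 3.06 relative reads (SD, n = 3). The 4 BRINP promoters stood at -0.20 with 2 lower, and the 23 adhesion G protein-coupled receptor promoters at -0.062 with 3 lower and the largest change at Adgrg3 (1.35, groups overlapping). These lists were drawn up around Brinp1 and Adgrg2 with their values known, and are no independent evidence. The clustered protocadherins, cell surface proteins that give neurons their identity, had the highest median of the lists with 10 or more tested promoters, 0.21. Of their 35 promoters 27 lay above 0, with 4 higher (Pcdhb1, Pcdhb4, Pcdhb18, the largest at 1.15, and Pcdhga6) and 0 lower, and their summed relative reads were 1611, 1520 and 1411 untreated and 1818, 1679 and 1738 treated. On the calibrated scale those sums overlapped. These promoters are GC-poor and little accessible, with a median GC of 48% and a median of 37 calibrated reads, where all tested promoters of the lowest GC decile stood at 0.10.

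**Figure D5:**
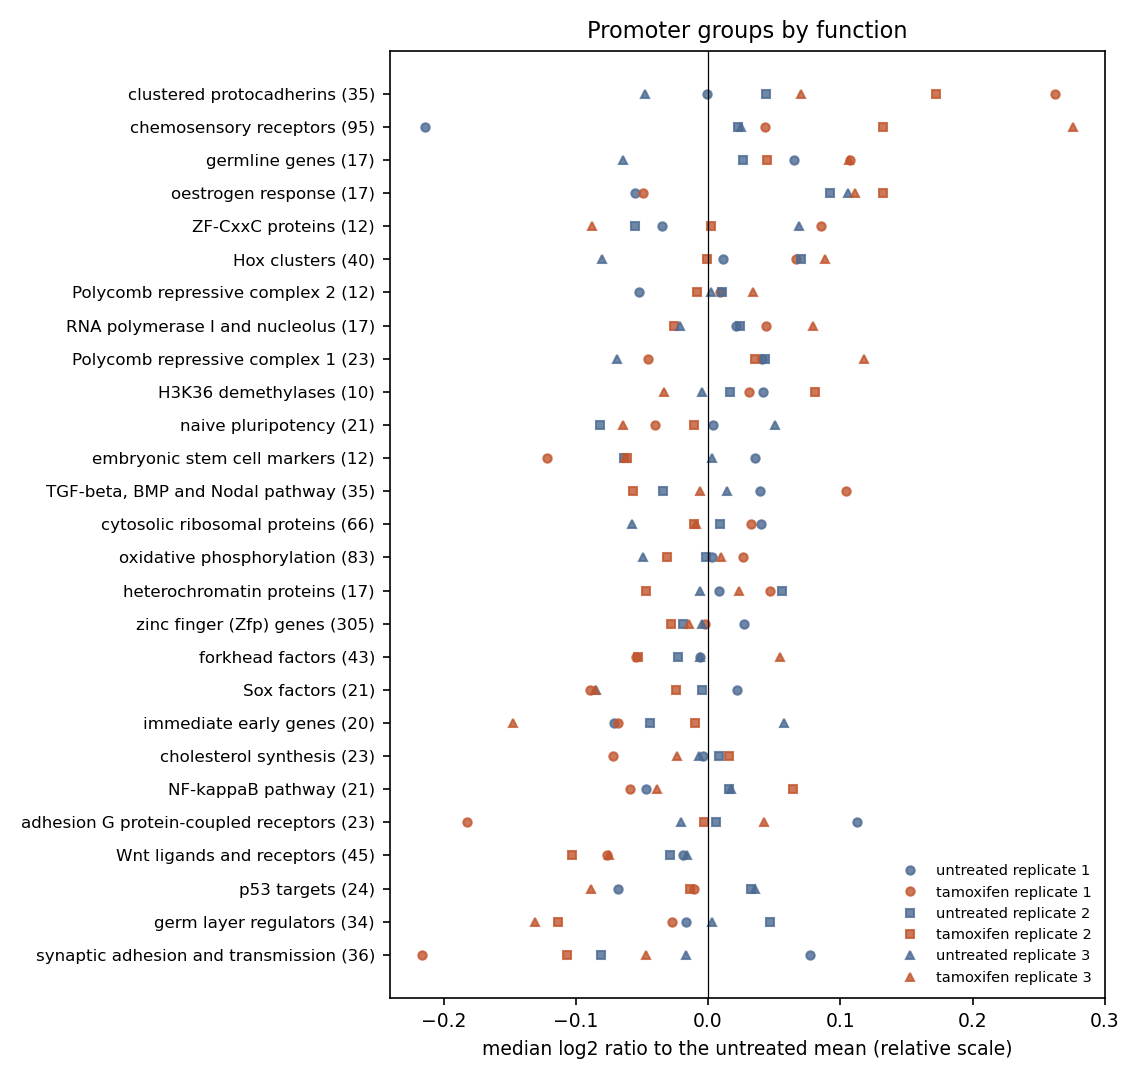
Median log2 ratio to the untreated mean on the relative scale (horizontal axis) over the tested promoters of each list with at least 10 of them (number in brackets), with 1 point per library. Clustered protocadherins stand at 0.07 to 0.26 in the treated libraries against -0.047 to 0.044 in the untreated ones, and most other lists overlap between the groups.

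The lists at the closed end had few testable promoters. Of 544 chemosensory receptor promoters, which are shut in mESCs, 95 passed the filter on reads, and these had a median relative log2 change of 0.14 with 3 lower and 8 higher. The filter asks for enough reads in at least 3 libraries, which 1 group alone can supply. The 95 therefore do not stand for the family, and their counts and largest change describe members selected in this way. Vmn1r1, a pheromone receptor, had the largest change at 1.55, from 0.976, 7.86 and 12.3 relative reads untreated to 19.3, 15.4 and 16.5 treated. Germline genes (17 tested) stood at 0.14 with 0 lower and 2 higher, Tex101 and Hormad1. The 7 histone gene promoters matched stood at -0.058 with 1 higher (H2ac21) and the largest change at H2bc6 (-0.22).

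By chromosome the medians of the relative log2 change ranged from -0.032 on X (512 tested promoters) to 0.017 on 14 over the 20 chromosomes with at least 100 tested promoters. On X, 6.84% of tested promoters had treated libraries all lower and 2.73% all higher. The lower share was larger on chromosomes 15 (7.52%) and 5 (7.06%), and the higher share was smallest on X.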

How the data were processed

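Calibrated ATAC-seq was measured in 6 Kdm2a-CXXC libraries, and in 20 libraries of 3 other lines for the comparison of responses. Samples were grouped by their labels. Paired-end reads were mapped by the authors to mm10 and dm6 using Bowtie 2. They discarded multi-mapping, duplicate, blacklisted and mitochondrial reads, and counted mouse reads at 20633 promoters; tool versions are not given in the sources used here. The deposited signal per library is that count divided by a spike-in size factor from Drosophila reads, which the authors corrected by the mixing ratio in genomic DNA. Their deposited fold changes and p-values were not used. Whole reads were recovered for 100% of values within 0.01 of a read. PCR copies were removed without molecular identifiers, so intervals from these reads would cover counting error only.

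Promoters were kept by edgeR's filterByExpr (edgeR 4.0.16) and tested with limma 3.58.1 with a mean-variance trend on log2(value + 1), for calibrated reads and for reads scaled by TMM. Fold changes on this scale understate changes at low values. A promoter was called at a fold over 1.4 with an adjusted p (Benjamini-Hochberg) under 0.05, the limits the authors used. Group medians were compared by exact two-sided permutation over libraries. GC content and sequences were read from GRCm38.p6, the build of mm10, with symbols for 99.1% of identifiers from RefSeq and strands from GENCODE; coordinates are 1-based.

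The labels call the replicates biological; separate cultures are not described, so p-values measure the spread between these samples. The replicate numbers were not used as a block in the main fits. Promoter by promoter, deviations of libraries with the same replicate number correlated only weakly (0.044, -0.0018 and 0.038). Between replicates 1 and 3 the correlations were -0.041 and -0.042. Such weak values do not settle whether the numbers pair the samples. These correlations do not see a shift common to all promoters of a library. On the spike-in scale the library medians did rise with the replicate number in both groups. Named promoters were Kdm2a and Kdm2b; the 8 with the smallest unadjusted relative p in each direction with non-overlapping groups and at least 20 calibrated reads; the 5 with the smallest p called without tamoxifen replicate 3; and the largest change in each list. Other list members named have non-overlapping groups on the relative scale. The lists, the rule and the comparison were chosen with earlier results of these data known. The fits were tested on simulated data. Alternatives were DESeq2 1.42.0, edgeR, other pseudocounts, filters and scalings, GC correction, a replicate block, thinned reads and leaving out each library. Some promoters that the rule names are not reported here.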

Additional observations from a re-analysis of the deposited data

How the results depend on the processing

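On the calibrated scale 0 promoters were called under limma with a pseudocount of 5, with no filter or with no fold threshold, and under edgeR and DESeq2. Leaving out each library gave 0 to 50 calls, the 50 without tamoxifen replicate 3. With a replicate block limma called 188 promoters, 186 of them lower, and 72 with the block and GC trends removed. With the block, leaving out a pair (added after seeing the data) gave 8, 0 and 261 without pairs 1, 2 and 3. Correlations over promoters were weak and do not settle whether the numbers pair the samples. On the calibrated scale untreated replicates 1 and 3 stood at 0.044 and 0.038 with the treated library of their own number. With each other's number they stood at -0.041 and -0.042. Untreated replicate 2 correlated better with tamoxifen replicate 3 (0.0054) than with its own number (-0.0018). Such correlations leave out a shift common to a library, and the calibrated library medians rose with the number in both groups. The blocked and the leave-one-out calls shared 39 promoters, 20.7% of the 188 and 78% of the 50. Relative calls were 0 under every alternative without the block and 0 with it, and 0 to 1 when a pair was also left out, the 1 being Brinp1. The difference from the other lines gave 0 calls under its alternatives and 0 to 1 when a library was left out, the 1 being Spata31 without tamoxifen replicate 1.

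The calibrated median shift ranged from -0.28 to -0.079 without each library and was 0.0043 after scaling to total promoter reads, a setting that removes a common shift by construction. The CpG-rich minus other difference ranged from -0.095 to -0.057 and the level difference from -0.17 to -0.11 without each library, and the level difference reversed to 0.016 among promoters with at least 50 calibrated reads, where the least accessible quintile is left out. With the block these 3 differences keep their values, with no p under 0.25 possible. Thinning all libraries to the shallowest one (added after seeing the data) gave -0.18, -0.083 and -0.16. Of 608 values of 19 named promoters, 569 kept their direction and side of the threshold, 35 became significant, all at the lower promoters and most of them under the block, and 4 reversed. Kdm2a calibrated ranged from -0.1201 to 0.02832 without each library, and was 0.0246 with the block without pair 3. Kdm2b NM_013910 relative ranged from -0.1602 to 0.01962 without each library, with 0.0004567 without tamoxifen replicate 1. With medians of 64 to 108 reads, changes at the least accessible promoters could not be bounded within 1.4-fold.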
